A study of Mus musculus with 48 samples.

Results

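The p53 gene Trp53 and 9 genes that p53 activates were followed through nascent RNA of mouse embryonic stem cells in which a chromatin remodeller had been disturbed. The members were chosen by name: Trp53, Cdkn1a, Mdm2, Ccng1, Trp53inp1, Bbc3, Bax, Phlda3, Zmat3 and Aen, which are 10 of the 55376 gene rows. All cells were of the 2i-derived line TCF2.2, labelled as strain C57BL/6 and kept without serum on gelatin in 2i medium. For the first comparison cells received 10 µM of BRM014, which inhibits the ATPases BRG1 and BRM of the SWI/SNF complex, or its solvent DMSO, each for 3 h. For the second, cells were transduced with a lentivirus carrying an shRNA against Chd4, the ATPase of the NuRD complex, or a scrambled shRNA, and held for 24 h in puromycin at 1.5 µg/mL. All 4 groups had 2 libraries, which the series calls biological duplicates, and all cells took up 500 µM 4-thiouridine for 5 min so that RNA made in that time could be pulled down and sequenced. The labels name the line but no separate clones, and 3 h of an inhibitor is set beside 24 h of a virus, so each treatment was read only against its own control.

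The p53 protein is a transcription factor held low in unstressed cells by the ubiquitin ligase MDM2, which is itself made from a p53 target gene. After DNA damage and other stress p53 accumulates, binds its response elements near target genes and raises genes of cell cycle arrest, such as Cdkn1a, and of cell death, such as Bbc3 and Bax. Embryonic stem cells make much p53, and p53 is known there for restraining self-renewal genes after damage.

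The response element is made of a pair of decamers, each with purines, a C, A or T letters, a G and pyrimidines. Promoter windows of RefSeq (GRCm38.p6, the build also called mm10) run from 250 bases before to 50 bases after a start site and were found for 8 of the 10 members, in 12 windows. The decamer is its own reverse complement, so a search on either strand finds the same places. An exact decamer lay in a window of Trp53, Cdkn1a, Mdm2, Ccng1, Bax and Aen. It was also present in 8.36% of all 32851 windows and in 6.77% of the 5586 windows of expressed genes. A pair of adjacent decamers with at most 1 mismatch in 20 letters was rarer, at 0.0883% of all windows, and it occurred in Cdkn1a and Ccng1. In Cdkn1a the pair GAACATGTCTTGACATGTTC lies on the plus strand at chr17:29090928-29090947, at positions -51 to -32 from the start site of the first Cdkn1a window. In Ccng1 the pair AGACCTGCCCGGGCAAGCCT lies on the minus strand at chr11:40755462-40755481, at positions -195 to -176. With at most 1 mismatch in 20 letters a pair always holds an exact decamer, so both overlap one by the rule of the search. The 250 bases before the start sites of these genes are shown because both hold a pair and yet differed in their response to BRM014. Those of Phlda3, the member with the largest change in the libraries labelled Chd4 shRNA, are shown beside them, and capitals mark decamers and pairs. The Cdkn1a stretch is chr17:29090729-29090978 (plus strand), that of Ccng1 is chr11:40755287-40755536 (minus strand) and that of Phlda3 is chr1:135765835-135766084 (plus strand).
Cdkn1a: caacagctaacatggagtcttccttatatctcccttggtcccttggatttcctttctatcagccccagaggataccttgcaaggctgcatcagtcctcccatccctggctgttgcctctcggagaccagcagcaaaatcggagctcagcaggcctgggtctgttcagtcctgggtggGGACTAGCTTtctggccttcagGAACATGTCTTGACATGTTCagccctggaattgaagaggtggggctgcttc
Ccng1: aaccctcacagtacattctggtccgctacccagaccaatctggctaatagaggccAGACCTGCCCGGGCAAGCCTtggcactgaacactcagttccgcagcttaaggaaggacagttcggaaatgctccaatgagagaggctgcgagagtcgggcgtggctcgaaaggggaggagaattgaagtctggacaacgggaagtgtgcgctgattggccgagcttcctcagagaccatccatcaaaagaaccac
Phlda3: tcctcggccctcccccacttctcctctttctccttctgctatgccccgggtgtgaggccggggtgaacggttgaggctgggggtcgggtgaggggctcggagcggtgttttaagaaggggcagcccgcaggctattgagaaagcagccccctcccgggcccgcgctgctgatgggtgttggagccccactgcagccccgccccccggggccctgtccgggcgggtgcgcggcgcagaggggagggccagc

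The Phlda3 window, with 71.7% G and C, and the 3 windows of Bbc3, with 74.7% to 78% G and C, held no decamer in these letters. A second Cdkn1a window farther into the gene, at chr17:29093519-29093818, held none either. These matches describe letters, and no binding of p53 was measured here.

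Total gene counts ran from 6982354 to 17128981 per library, with the 2 lowest in the libraries labelled Chd4 shRNA. Chd4 itself had 730 and 760 counts in those libraries against 806 and 618 in the scrambled ones. The log2 fold change was 0.57 ± 0.16 (SE, edgeR adjusted p = 0.00532), so nascent counts do not show a lower Chd4. An shRNA acts on RNA after transcription, so these counts cannot tell whether the knockdown worked. The libraries are named below by their label. Genes of 1434 olfactory and vomeronasal receptors, taken as background, averaged 6.99 ± 0.303 counts for each kb of exonic length where the label was Chd4 shRNA (SD, n = 2 in each group). The averages were 1.58 ± 0.361 with scrambled shRNA, 2.15 ± 0.696 with BRM014 and 2.65 ± 0.0208 with DMSO. Tests were run on the 8272 genes whose mean count was at least 10-fold above background, and all 10 members passed, the lowest at 16.1-fold. Levels are CPM, counts scaled to a common library size by trimmed means (TMM) among those genes, so a change is one relative to other expressed genes and not per cell. Stem cell markers (Pou5f1, Sox2, Nanog, Esrrb, Zfp42, Tdh, Dppa5a and Klf4) summed to between 2716 and 3295 CPM in the 6 other libraries and to 1765 and 1689 CPM in those labelled Chd4 shRNA. Of 8 such markers, 7 were called lower there, where 20.5% of all 8272 tested genes were. Of the 6 fibroblast and 6 primitive endoderm markers, 0 reached the expressed set. That set rests on the mean over all 8 libraries, so a gene raised in a single group could miss it. The summed fibroblast counts were 445 and 478 there, where background alone would give 292.3 and 310.7, and between 80 and 164 in the other libraries against 57.08 to 114.7. In a culture, a shift in the kinds of cells and a shift within cells cannot be told apart, and the part of either in the results was not tested.

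Per kb of exon, Bax was the most transcribed member in DMSO at 68.8 ± 5.71 CPM per kb (SD, n = 2), followed by Ccng1 at 29.4 ± 3.43, Cdkn1a at 24.3 ± 1.64, Phlda3 at 18.7 ± 1.60 and Trp53 at 10.8 ± 1.90 CPM per kb. The other 5 lay lower and close to each other, from 6.81 ± 0.421 CPM per kb for Aen to 4.28 ± 0.528 for Zmat3. Across the 4 groups the highest group mean was under 1.5 times the lowest for 5 members and reached 2.50 times for Ccng1. Of the 30 steps between neighbouring groups in the members' orders, 15 had overlapping libraries, against 53.4% of such steps over all 8272 tested genes.

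**Figure D1:**
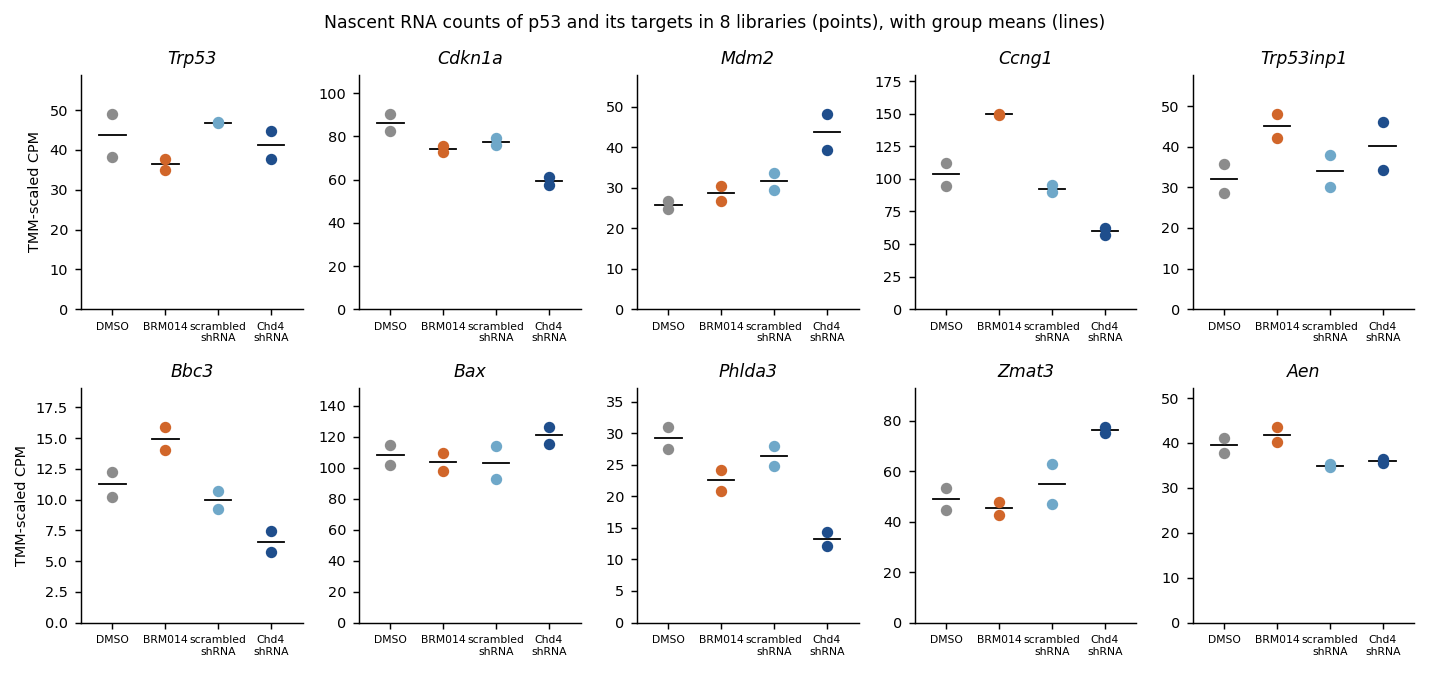
TMM-scaled CPM (vertical axes, from 0) of the 10 members in the 8 nascent RNA libraries; points are libraries and lines are means of 2. Ccng1 and Bbc3 are highest with BRM014 and lowest in the libraries labelled Chd4 shRNA, and Phlda3 drops to 12.1 and 14.3 CPM in the latter.

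After 3 h of BRM014, 2 of the 10 members rose and 0 fell at an adjusted p under 0.05 (edgeR's quasi-likelihood test with Benjamini-Hochberg adjustment over all 8272 genes). Over all those genes 3.12% were called higher and 4.63% lower, so the members called higher rest on 2 genes. With any of the 3 ERCC scalings no member was called in either direction (edgeR), where by plain sums 11 of all tested genes were higher and 93 lower. At an unadjusted p under 0.05 the members were 3 higher and 1 lower, where 10.3% and 11% of all tested genes were. Their median log2 fold change was 0.01, the same as that of all tested genes.

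Ccng1, which encodes cyclin G1, a partner of the phosphatase PP2A in restraining p53, had the clearest rise. It stood at 148.8 and 150.0 CPM in BRM014 replicates 1 and 2 and at 94.8 and 111.9 CPM in the DMSO replicates. Both BRM014 libraries lay above both controls, 1.45-fold on average. The log2 fold change of 2 against 2 libraries was 0.53 ± 0.13 (SE from the fit of all 8 libraries, edgeR adjusted p = 0.0125). The call ended without BRM014 replicate 1 (adjusted p = 0.101), BRM014 replicate 2 (0.139) or DMSO replicate 1 (0.061), and when every gene with at least 1 count was tested (0.0709).

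Trp53inp1, whose product aids p53 phosphorylation and autophagy in stressed cells, had 48.1 and 42.1 CPM with BRM014 against 28.6 and 35.6 CPM with DMSO. The groups did not overlap, and the log2 fold change was 0.49 ± 0.15 (edgeR adjusted p = 0.0474). That call lay at the threshold and ended with DESeq2 (adjusted p = 0.133), with the background subtracted (0.0733), with every gene of at least 1 count (0.252), with an added low-count filter (0.0733), and without BRM014 replicate 1 (0.327), BRM014 replicate 2 (0.0864) or DMSO replicate 1 (0.215).

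Trp53 itself had 37.7 and 34.99 CPM with BRM014 against 38.3 and 49.1 CPM with DMSO. The lower DMSO library was within 1 CPM of the higher treated library. Its log2 fold change of -0.27 had a 95% interval from -0.55 to 0.02 (edgeR adjusted p = 0.275, and 0.0469 without DMSO replicate 1). A pseudogene, Trp53-ps, held between 6 and 20 counts in each library, where Trp53 held between 234 and 869.

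The main negative regulator Mdm2 had 30.4 and 26.8 CPM with BRM014 against 24.8 and 26.7 CPM with DMSO, a log2 fold change of 0.15 with an interval from -0.13 to 0.43. For Cdkn1a, which encodes the cyclin-dependent kinase inhibitor p21, the libraries stood at 72.8 and 75.7 CPM with BRM014 against 82.3 and 90.5 CPM with DMSO. Its log2 fold change of -0.22 had an interval from -0.48 to 0.04 (edgeR adjusted p = 0.349). Both groups of Cdkn1a libraries were separate, yet the difference did not pass the test. The antisense row 1700023B13Rik overlaps 1046 bases of Cdkn1a and held 136 and 194 counts in the BRM014 libraries and 283 and 285 in the DMSO ones. Whether strands were counted separately is not given in the sources used here, so reads of this pair may be mixed.

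Among the genes of cell death, Bbc3, which encodes the BH3-only protein PUMA, had 15.9 and 14.0 CPM with BRM014 against 10.2 and 12.3 CPM with DMSO. Its log2 fold change of 0.40 ± 0.14 missed the threshold (edgeR adjusted p = 0.0788), and was called without DMSO replicate 2 (0.54, adjusted p = 0.00949). Bax, which encodes a pore-forming protein of the mitochondrial outer membrane, overlapped between the groups at 97.8 and 109.4 against 114.7 and 102.0 CPM. Its interval ran from -0.35 to 0.22, and 915 of its bases overlap Gm45808 on the same strand, a row with a mean count of 411.2 against the 1261 of Bax. Phlda3, which encodes a repressor of AKT at the membrane, had 24.2 and 20.9 CPM with BRM014 against 31.0 and 27.5 CPM with DMSO. Both treated libraries lay below both controls, with a log2 fold change of -0.38 ± 0.13 (edgeR adjusted p = 0.0815, and 0.0153 without DMSO replicate 2). Zmat3, which encodes an RNA-binding zinc finger protein that affects splicing, and Aen, which encodes a nuclease of apoptosis, overlapped between the groups. Their intervals ran from -0.42 to 0.18 and from -0.17 to 0.34.

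In all, 4 members lay above and 3 below their DMSO libraries without overlap, where 25.1% and 23.4% of all tested genes did so. The direction differed among members, with Ccng1, Trp53inp1, Bbc3 and Mdm2 on the higher side and Trp53, Cdkn1a and Phlda3 on the lower.

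**Figure D2:**
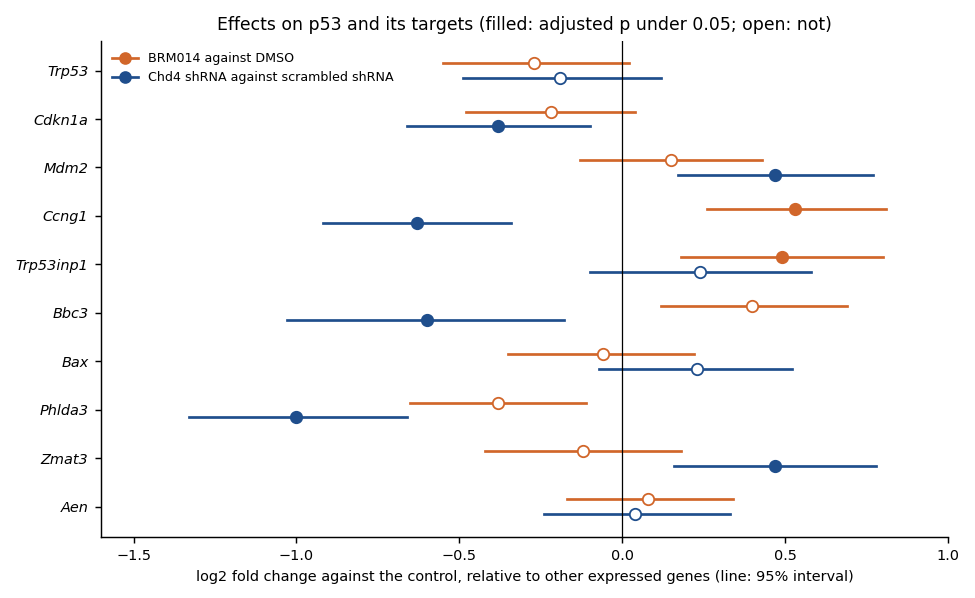
Log2 fold changes of the members (horizontal axis) with 95% intervals from edgeR, for BRM014 against DMSO (orange) and the libraries labelled Chd4 shRNA against scrambled shRNA (blue); filled points have an adjusted p under 0.05. Ccng1 lies at 0.53 and -0.63 and Bbc3 at 0.40 and -0.60, on opposite sides of 0.

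In the libraries labelled Chd4 shRNA, 4 members fell and 2 rose against the scrambled shRNA. All tested genes were called lower in 20.5% and higher in 19.4% of cases, and their median was -0.01 against -0.07 for the members. The members that fell were Phlda3, Ccng1, Bbc3 and Cdkn1a, and those that rose were Mdm2 and Zmat3. Scaled by TMM over all genes that pass the low-count filter, background included, the split became 0 higher and 10 lower, while plain ERCC sums gave 4 higher and 0 lower. ERCC totals with TMM gave 0 and 0 (edgeR), where over all tested genes 57 were called higher and 6 lower. Over all tested genes the other splits were 54 higher and 7554 lower, and 2836 higher and 62 lower. The median expressed gene shifted by -1.34, 0.59 and 0.19 under those scalings, so the directions given here hold relative to other expressed genes. With any of the 3 ERCC scalings the 4 lower calls ended, and Cdkn1a was at 0.24 with plain ERCC sums.

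Phlda3 changed most. It had 12.1 and 14.3 CPM in the libraries labelled Chd4 shRNA, replicates 1 and 4, against 24.7 and 27.97 CPM in the scrambled replicates 1 and 3. The groups were well apart, and the level was 0.501 of that with scrambled shRNA. On the log2 scale this was -1.0 ± 0.16 for 2 against 2 libraries (SE from the fit of all 8 libraries, edgeR adjusted p = 4.6e-05). With the background subtracted it was -0.95 ± 0.18 (adjusted p = 0.000182). Without each of the 8 libraries in turn it stayed called, at -1.12 to -0.88.

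Ccng1 fell to 57.2 and 62.5 CPM from 89.6 and 95.5 CPM, a log2 fold change of -0.63 ± 0.14 (edgeR adjusted p = 0.00112). Both libraries were below all 6 others of the study. The call held without each library in turn, and the value was -0.48 ± 0.14 with the background subtracted (adjusted p = 0.00991).

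Bbc3 had 7.41 and 5.71 CPM against 10.7 and 9.25 CPM, a log2 fold change of -0.60 ± 0.21 (edgeR adjusted p = 0.0216). These were only 46 and 35 counts, and background alone would give 14.4 and 15.3, or 36.7% of the counts. With the background subtracted the value was -0.95 ± 0.25 (adjusted p = 0.00365). The call ended with DESeq2 (0.0755), without Chd4 shRNA replicate 4 (0.225) and without scrambled shRNA replicate 1 (0.127).

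Cdkn1a had 57.6 and 61.3 CPM against 79.4 and 75.8 CPM, a log2 fold change of -0.38 ± 0.14 (edgeR adjusted p = 0.0268). The groups did not overlap, but the call was the least steady of the 4. It ended with the background subtracted (-0.24, adjusted p = 0.181), with genes at least 30-fold above background (-0.20, 0.215), without any 1 of the 4 libraries compared (0.0623 to 0.176) and without either BRM014 library (0.0535).

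Mdm2 rose to 39.3 and 48.3 CPM from 33.7 and 29.4 CPM, a log2 fold change of 0.47 ± 0.14 (edgeR adjusted p = 0.0119). The value with the background subtracted was 0.55 ± 0.16 (adjusted p = 0.00772), and the call ended without Chd4 shRNA replicate 4 (0.212) or scrambled shRNA replicate 3 (0.118). Zmat3 rose to 75.2 and 77.5 CPM from 62.9 and 47.1 CPM, with a log2 fold change of 0.47 ± 0.15 (edgeR adjusted p = 0.0143). The scrambled libraries differed more from each other than those labelled Chd4 shRNA did, and without scrambled shRNA replicate 3 the value was 0.28 (adjusted p = 0.238). The call of Zmat3 also ended without Chd4 shRNA replicate 1 (0.0571) or 4 (0.0845). With genes at least 3-fold above background tested and used for scaling, Mdm2 and Zmat3 were both at 0.09 and not called.

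The remaining members did not pass the test. Trp53 had 37.7 and 44.7 CPM against 46.7 and 47.0 CPM, with a log2 fold change of -0.19 and an interval from -0.49 to 0.12. It was called lower with genes at least 3-fold above background (-0.57, adjusted p = 0.00199) and with TMM over all genes, and stood at 0.45 with plain ERCC sums, not called. Bax had 126.3 and 115.5 CPM against 92.6 and 113.8 CPM, at 0.23 with an interval from -0.07 to 0.52. It was called at 0.45 with the background subtracted (adjusted p = 0.0161) and at 0.42 with genes at least 30-fold above background (0.00804). Background makes up 1.48% of its counts in these libraries. Trp53inp1 overlapped between the groups, with an interval from -0.10 to 0.58. Aen differed by less than 2 CPM, with an interval from -0.24 to 0.33. Of the 10 members, 5 lay below and 4 above the scrambled libraries without overlap, against 37% and 35.8% of all tested genes.

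Besides Bbc3, background alone would account for between 1.48% and 18.3% of the members' counts in the libraries labelled Chd4 shRNA. In the other groups, Bbc3 included, it came to between 0.216% and 3.83%. In all groups the lowest share was that of Bax, the shortest but one of the members by exon length.

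**Figure D3:**
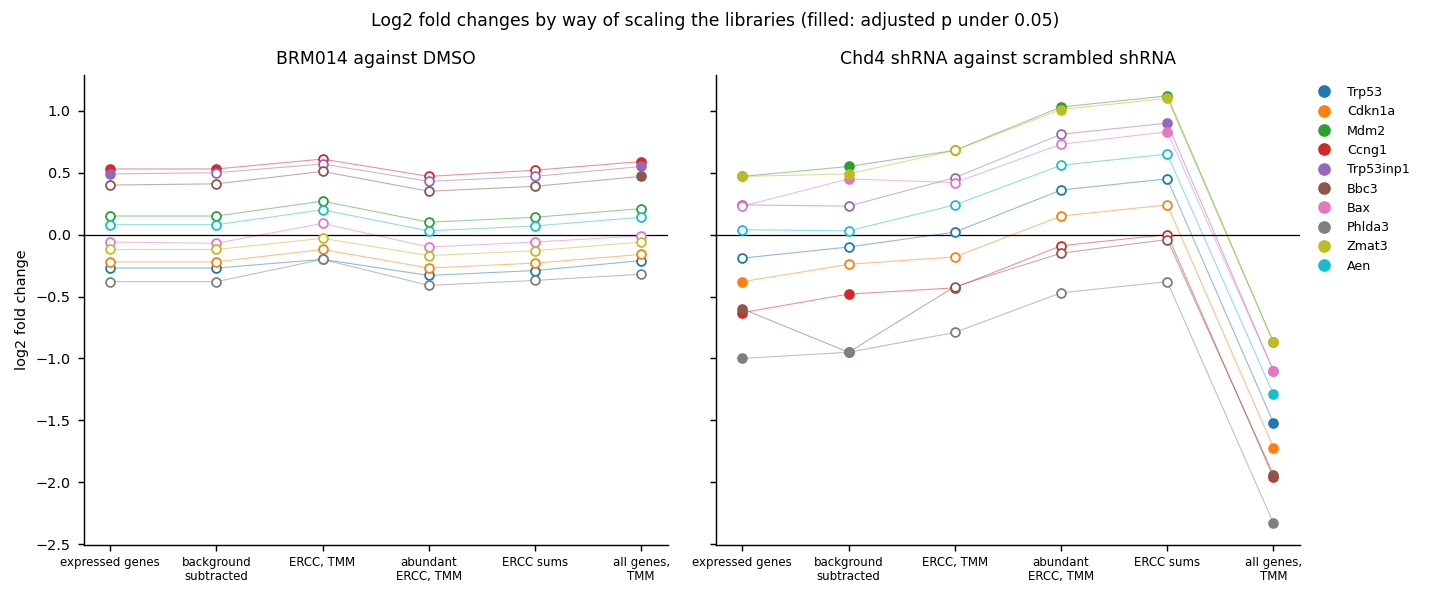
Log2 fold changes of the 10 members (vertical axis) in both comparisons under 6 ways to scale or correct the libraries (horizontal axis); filled points have an adjusted p under 0.05. In the libraries labelled Chd4 shRNA the whole set moves, from 0.47 for Mdm2 among expressed genes to 1.12 with plain ERCC sums and -0.87 with all genes.

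Both effects were also compared with each other, by the difference of the differences. Over all tested genes 15.4% had a higher effect with BRM014 and 15.4% a lower one, and of the members 3 were higher and 1 lower. Those 3 higher calls ended with each of the ERCC scalings, which gave 0 higher, while TMM over all genes gave 10 higher and 0 lower. Ccng1 differed most, by 1.16 ± 0.19 on the log2 scale (edgeR adjusted p = 0.0001), between a rise with BRM014 and a fall in the libraries labelled Chd4 shRNA. Bbc3 differed by 1.01 ± 0.25 (adjusted p = 0.00338). Phlda3, at -0.38 with BRM014 and -1.0 in the libraries labelled Chd4 shRNA, differed by 0.62 ± 0.21 (adjusted p = 0.0283, but 0.0588 with the background subtracted and 0.0868 with DESeq2). It also ended without BRM014 replicate 1 (0.134), Chd4 shRNA replicate 1 (0.172) or scrambled shRNA replicate 3 (0.112). Zmat3 differed in the other direction, by -0.59 ± 0.21 (adjusted p = 0.0337). That call ended without BRM014 replicate 2 (0.152), either Chd4 shRNA replicate (0.08 and 0.0976), DMSO replicate 2 (0.0738) or scrambled shRNA replicate 3 (0.198). For Trp53, at -0.27 and -0.19, the difference was -0.08 with an interval from -0.50 to 0.34, and for Cdkn1a it was 0.17 with an interval from -0.22 to 0.55. Time and mode of treatment differ between the comparisons, so these differences cannot be told apart from 3 h against 24 h or from inhibitor against virus.

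Other genes of the pathway were taken from lists written from general knowledge. Of 24 further targets of arrest, repair and metabolism 14 were expressed, and with BRM014 3 of them rose and 1 fell, with a median of 0.03. All tested genes were called higher in 3.12% and lower in 4.63% of cases. With any of the 3 ERCC scalings no gene of this list was called with BRM014. Gadd45a, a growth arrest gene also induced through ATF4, rose most, from 12.8 and 15.9 CPM to 26.4 and 27.5 CPM. Its log2 fold change was 0.90 ± 0.13 (edgeR adjusted p = 3.67e-05). Ddit4, which encodes an inhibitor of mTORC1 and also answers ATF4, rose by 0.49 ± 0.12 (adjusted p = 0.0132). Gdf15, a secreted stress factor, fell by 0.61 ± 0.14 on the log2 scale (adjusted p = 0.00509). Ppm1d, named after its values were seen, encodes the phosphatase WIP1, which acts against p53, and rose by 0.53 ± 0.14 (adjusted p = 0.0187).

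In the libraries labelled Chd4 shRNA, 7 of these 14 genes fell and 1 rose, with a median of -0.43, where 20.5% of all tested genes were called lower and 19.4% higher. The split turned with the scaling, to 0 higher and 14 lower with TMM over all genes and to 1 higher and 0 lower with plain ERCC sums. Ddit4 fell from 48.2 and 50.1 CPM to 23.0 and 25.3 CPM, a log2 fold change of -1.03 ± 0.14 (edgeR adjusted p = 5.8e-06). Gdf15 fell by 0.96 ± 0.16 and Btg2, which encodes an antiproliferative cofactor of RNA deadenylation, by 0.84 ± 0.17 on the log2 scale (adjusted p = 6.79e-05 and 0.00035). Ppm1d was the gene that rose (0.54 ± 0.17, adjusted p = 0.0122). Background made up 27.7% of its counts there and 6.43% in the scrambled libraries, and with the background subtracted the value was 0.40 ± 0.19 (adjusted p = 0.101). Between the effects the differences were largest for Gadd45a, at 1.59 ± 0.22, and Ddit4, at 1.52 ± 0.19 (adjusted p = 7.69e-06 and 2.81e-06), with Psrc1, a spindle protein gene, at 0.59 ± 0.19 (adjusted p = 0.0219, but 0.091 with the background subtracted). In this list 6 genes had a higher effect with BRM014 and 0 a lower one by edgeR, against 15.4% of all tested genes in each direction. At an unadjusted p under 0.05 it had 7 and 0, against 21% and 20.5%. With the background subtracted the calls were 2 and 0, with plain ERCC sums 0 and 0, and with TMM over all genes 14 and 0.

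Of 12 further targets of cell death 6 were expressed. Among these, 1 was called higher and 1 lower with BRM014, against 3.12% and 4.63% of all tested genes. Neither call held with any of the 3 ERCC scalings. With BRM014 Pmaip1, which encodes the BH3-only protein NOXA, rose by 0.49 ± 0.15 (edgeR adjusted p = 0.0413, but 0.0837 with the background subtracted), and Pidd1, which encodes a scaffold for caspase 2, fell by 0.50 ± 0.13 on the log2 scale (adjusted p = 0.0161). In the libraries labelled Chd4 shRNA, Tnfrsf10b, a death receptor gene, rose by 0.46 ± 0.17 (adjusted p = 0.0365). Background made up 35.5% of its counts there and 7.76% in the scrambled libraries, and with the background subtracted the value was 0.18 ± 0.20 (adjusted p = 0.505). Pml, of the nuclear bodies of that name, fell by 0.65 ± 0.16 on the log2 scale (adjusted p = 0.00275). Over all tested genes 20.5% were called lower and 19.4% higher there. The list had 0 higher and 6 lower with TMM over all genes, and 1 higher and 0 lower with plain ERCC sums. With any of the 3 ERCC scalings 0 were lower, so the fall of Pml was not called. Pmaip1 had the only called difference between the effects in this list, 0.86 ± 0.25 (adjusted p = 0.0118). Over all tested genes 15.4% were called in each direction. Background made up 35.4% of Pmaip1 counts in the libraries labelled Chd4 shRNA, where its change of -0.37 was not called. With the background subtracted that change was -0.72 (edgeR adjusted p = 0.0267), and the list had 0 higher and 2 lower there. With any of the 3 ERCC scalings no difference in this list was called.

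Of 21 genes that act on p53, 19 had a row by the names used and 11 were expressed. With any of the 3 ERCC scalings no gene of this list was called with BRM014. Among expressed genes as reported, 3.12% of all tested genes were called higher and 4.63% lower. With BRM014 Chek1, a kinase gene of the DNA damage checkpoint, rose by 0.42 ± 0.13 (edgeR adjusted p = 0.0498, but 0.0779 with the background subtracted) and 0 fell, or 1 at an unadjusted p under 0.05. In the libraries labelled Chd4 shRNA Rpl5, a ribosomal protein gene whose product binds MDM2, fell by 0.95 ± 0.15 on the log2 scale (adjusted p = 3.41e-05), while Usp7, which encodes the deubiquitinase of MDM2 and p53, rose by 0.42 ± 0.14 (adjusted p = 0.0183). Over all tested genes 20.5% were called lower and 19.4% higher there. The list had 0 higher and 11 lower with TMM over all genes, and 4 higher and 0 lower with plain ERCC sums. With any of the 3 ERCC scalings 0 were lower, so the fall of Rpl5 was not called. The effects differed for Rpl5 by 1.08 ± 0.21 and for Chek1 by 0.69 ± 0.20 (adjusted p = 0.000462 and 0.0122). The list thus had 2 higher and 0 lower, against 15.4% of all tested genes in each direction. With the background subtracted it had 2 higher and 3 lower. The lower ones were Mdm4 at -0.65, Usp7 at -0.60 and Cdkn2a at -0.70 (edgeR adjusted p = 0.0318, 0.0248 and 0.0151). With any of the ERCC scalings no gene of this list was called with a higher effect of BRM014. The p53 relatives Trp63 and Trp73 were at 0.958-fold and 1.94-fold of background and were not tested.

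**Figure D4:**
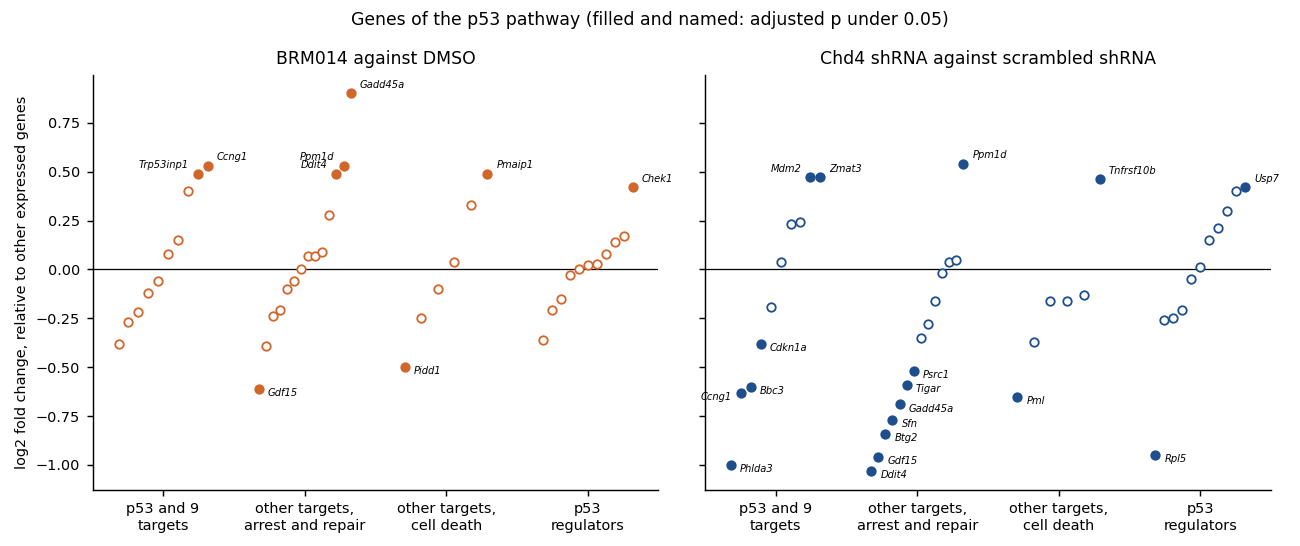
Log2 fold changes (vertical axis) of the expressed genes of the p53 pathway by list, ordered within each list, for BRM014 against DMSO (left) and the libraries labelled Chd4 shRNA against scrambled shRNA (right); filled and named points have an adjusted p under 0.05. Gadd45a stands highest at left with 0.90, and 7 of 14 targets of arrest and repair lie filled below 0 at right.

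The expressed genes whose log2 CPM ran most like that of a member over the 8 libraries were listed for Trp53, Cdkn1a and Mdm2 among 5944 genes, with names of the forms Gm and digits, Rik, AC and AL left out. For Trp53 they were Gorasp2, Tor1b and Wdr77, with Pearson's r of 0.963, 0.950 and 0.943, and only 6 genes exceeded 0.9. For Cdkn1a they were Cldn4, Idh3g and Snora15 (0.979, 0.969 and 0.960), and 107 genes exceeded 0.9. For Mdm2 they were BC005537, Gpbp1l1 and Kdm1a (0.996, 0.994 and 0.981), and 448 genes exceeded 0.9. The 8 libraries share 4 groups and 1 scaling, so these values are a description.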

How the data were processed

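Nascent RNA libraries were analysed here, 8 of the 48 samples in the series; the 40 chromatin immunoprecipitation samples were not used. What the authors deposited are whole-number read counts, for each gene and for each ERCC spike-in RNA. Trim Galore 0.6.4, STAR 2.7.1a, featureCounts and edgeR 3.32.1 with build mm10 are named in the submitters' processing notes, and the strand setting is not given in the sources used here. Exonic lengths are those of the deposited file. Groups came from the titles; columns numbered 4 (Chd4 shRNA) and 3 (scrambled) match no title number and were placed by group name.

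One model over all 8 libraries was fitted (edgeR 4.0.16, R 4.3.3; quasi-likelihood F test, no covariate, no pairing) on the 8272 genes with a mean count at least 10-fold above receptor background (5330.3 kb of exon), with TMM scaling among them and Benjamini-Hochberg adjustment; a call is an adjusted p under 0.05. SEs are the log2 fold change over the root of F. DESeq2 1.42.0, other scalings, filters, background subtraction and left-out libraries were alternatives. Of each further list, up to 3 called genes with the smallest p per comparison were named. Members, lists, tests and the background threshold were chosen with earlier results of these data known. The fit was tested on simulated counts. An exact permutation test of 2 against 2 libraries cannot go below 0.333. Figures used matplotlib 3.10.9.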

Additional observations from a re-analysis of the deposited data

How the results depend on the processing

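With BRM014 against DMSO, counts moved with the alternatives; over all 3 comparisons 457 of the members' values kept direction and side of the threshold, 82 lost and 19 gained a call, and 37 changed sign, 26 of them called under neither setting. Higher members (2 as reported) and all genes called higher and lower (258 and 383) came to 0, 103 and 324 with every gene of at least 1 count; 3, 503 and 763 with genes 3-fold above background; 1, 52 and 205 at 30-fold; 3, 395 and 284 with TMM over all genes; 0, 0 and 0 with ERCC totals and TMM; 0, 11 and 93 with ERCC sums; 0, 7 and 75 with abundant ERCC RNAs; 1, 96 and 201 with DESeq2; 1, 185 and 339 with the background subtracted; and 0, 16 and 123 when a log2 change of 1 was also required. The added low-count filter gave 1, 197 and 376. At 30-fold, in all 3 comparisons, only Trp53, Cdkn1a, Ccng1, Bax and Phlda3 of the members were tested. Trp53inp1, at 20.3-fold above background, was left out there rather than tested and not called. Bax, not called, turned to 0.09 with ERCC totals and TMM; without a library it came to -0.15 to 0.02, and Zmat3 to -0.24 to 0.01. Without each library in turn members came to 0 to 3 higher and 0 to 1 lower, and all genes to 85 to 738 and 167 to 653.

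For Chd4 shRNA against scrambled shRNA (members 2 higher and 4 lower, all genes 1607 and 1694) the counts were 0, 5, 3931 and 4019 at 3-fold; 1, 2, 891 and 828 at 30-fold; 0, 10, 54 and 7554 with TMM over all genes; 0, 0, 57 and 6 with ERCC totals and TMM; 4, 0, 2836 and 62 with ERCC sums; 2, 0, 1664 and 50 with abundant ERCC RNAs; 0, 0, 326 and 282 with a log2 change of 1 required; and 31704 and 1815 genes with every gene of at least 1 count. Without a library members came to 0 to 2 and 2 to 4, and all genes to 1073 to 1879 and 1103 to 1940. TMM over all genes reversed Mdm2 (-0.87), Zmat3 (-0.87), Bax (-1.10), Trp53inp1 (-1.10) and Aen (-1.29), and Cdkn1a turned with ERCC sums (0.24) and abundant ERCC RNAs (0.15). Uncalled turns were Trp53inp1 (-0.15), Bax (-0.16) and Aen (-0.34) at 3-fold, and Trp53 with ERCC totals and TMM (0.02), ERCC sums (0.45), abundant ERCC RNAs (0.36) and at 30-fold (0.00).

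For the difference of the effects (members 3 and 1, all genes 1271 and 1274) they were 5, 0, 3378 and 3203 at 3-fold; 1, 1, 634 and 750 at 30-fold; 10, 0, 7147 and 68 with TMM over all genes; 0, 0, 1 and 23 with ERCC totals and TMM; 0, 1, 22 and 1341 with ERCC sums; 0, 0, 9 and 691 with abundant ERCC RNAs; 2, 0, 388 and 535 with a log2 change of 1; and 1335 and 22493 genes with every gene. Without a library they came to 2 to 3 and 0 to 1, and 825 to 1560 and 854 to 1450. TMM over all genes reversed Trp53 (1.32), Mdm2 (1.07), Bax (1.10) and Zmat3 (0.81). Uncalled turns were Trp53 (0.33), Mdm2 (0.09) and Bax (0.12) at 3-fold, Cdkn1a at 30-fold (-0.02), Aen with ERCC totals and TMM (-0.04), and Cdkn1a, Trp53inp1 and Aen with ERCC sums (-0.47, -0.43 and -0.58) and abundant ERCC RNAs (-0.42, -0.39 and -0.52). Without a library Trp53 came to -0.25 to 0.11 and Aen to -0.02 to 0.11. The cause of these changes was not tested.

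With the replicate block for BRM014, 0 members and 106 genes were called higher and 271 lower; same-numbered libraries did not deviate together (r = -0.22 over 8272 genes), so the number was not taken as a pairing. With crossed numbers, chosen after seeing the data, 3 members were higher and 1 lower, and 580 and 641 genes. For Chd4 shRNA against scrambled shRNA no paired fit could be made, because their columns share only number 1. With 2 libraries in a group the intervals are wide, and Bbc3 rests on 46 and 35 counts.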
